A study of Mus musculus with 2 samples.

Results

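The clustered histone genes on mouse chromosome 13 were taken as all protein-coding genes of the GENCODE M21 annotation (mm10) on that chromosome whose symbol starts with Hist1h. There were 54 such genes among the 21668 that code for protein on the autosomes and the X chromosome: 6 of type H1, 13 H2A, 15 H2B, 9 H3 and 11 H4. The assay was DNase-seq: the enzyme DNase I cuts accessible DNA, and the cut ends are sequenced. The samples were thymus tissue from 2 females of B6CASTF1/J, F1 hybrids of C57BL/6J with CAST/EiJ, taken at 14 days of age. They form 1 group with no control, and the labels give them different animal numbers but a shared donor identifier. The deposited files hold peaks, footprints and a track of false discovery rates for each animal, and no source used here gives the read depth.

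Core histones (H2A, H2B, H3 and H4) form the protein spool around which DNA is wound, and linker histones (H1) bind the DNA between spools. Most of the clustered genes are replication-dependent. Such genes have few or no introns, and their transcripts end in a stem-loop in place of a poly(A) tail. They are transcribed mainly while DNA is being copied. Many H2A and H2B genes lie head to head and share 1 upstream stretch. The thymus of a young animal holds many dividing thymocytes. In bulk tissue, a promoter open in fewer cells and a promoter less open in every cell cannot be told apart.

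The upstream sequences of the strongest gene of each type are shown as single examples, which need not be typical of their type. They stop at the annotated starts, so strings past these are not printed. Capitals mark short strings known from histone promoters: CCAAT, bound by NF-Y; AAACACA of the H1 AC box; GGTCCG, the core of the H4 element bound by HINFP; TTTNGCGC, a string for E2F; and GGGCGG, the GC box. All letters come from the RefSeq GRCm38.p6 assembly (mm10), which is the C57BL/6J sequence, so letters of the CAST/EiJ allele are not shown. Hist1h1c is shown from chr13:23738658-23738807 on the plus strand, Hist1h3e from chr13:23562370-23562519 on the minus strand and Hist1h4c from chr13:23698455-23698604 on the minus strand, each as the 150 bases before its outermost annotated transcription start site (TSS). The strongest H2A and H2B genes, Hist1h2ad and Hist1h2bf, are a head-to-head pair, so the 184 bases between their TSSs are shown once, from chr13:23574197-23574380 on the plus strand. Hist1h1t, the linker histone gene of male germ cells, is added as the weakest open promoter, with 150 bases from chr13:23695664-23695813 on the plus strand.
Hist1h1c: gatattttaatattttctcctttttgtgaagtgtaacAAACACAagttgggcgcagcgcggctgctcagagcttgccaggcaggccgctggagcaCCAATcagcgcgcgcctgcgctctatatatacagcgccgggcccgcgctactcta
Hist1h3e: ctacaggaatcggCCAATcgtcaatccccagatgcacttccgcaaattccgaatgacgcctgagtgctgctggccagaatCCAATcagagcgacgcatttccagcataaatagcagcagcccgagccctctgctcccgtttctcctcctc
Hist1h4c: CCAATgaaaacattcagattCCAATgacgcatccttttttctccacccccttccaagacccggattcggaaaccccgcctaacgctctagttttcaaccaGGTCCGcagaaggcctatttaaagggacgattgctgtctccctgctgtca
Hist1h2bf-Hist1h2ad: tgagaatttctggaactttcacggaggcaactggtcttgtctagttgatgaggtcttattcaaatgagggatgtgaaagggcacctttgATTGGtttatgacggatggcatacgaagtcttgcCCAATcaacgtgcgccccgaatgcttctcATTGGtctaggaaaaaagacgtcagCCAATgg
Hist1h1t: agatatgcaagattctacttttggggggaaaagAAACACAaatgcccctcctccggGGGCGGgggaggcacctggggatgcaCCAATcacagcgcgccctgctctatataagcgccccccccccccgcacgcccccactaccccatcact

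Most clustered histone genes had an open promoter in the thymus. A promoter was called open when a peak of the longer deposited list had any base within 500 bp of an annotated TSS in both replicates. By that rule 47 of 54 histone genes (87.0%) were open, against 12656 of 21614 other protein-coding genes (58.6%). The count was 47 in each replicate alone, against 60.4% of other genes in replicate 1 and 61.4% in replicate 2. All 9 H3 and all 11 H4 genes were open, as were 5 of 6 H1, 10 of 13 H2A and 12 of 15 H2B genes. The 7 genes without a peak were Hist1h1d, Hist1h2aa, Hist1h2ao and Hist1h2ap, and the H2B genes Hist1h2ba, Hist1h2bq and Hist1h2br; none of these had a peak in its window in either replicate.

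The tissue label was checked against marker genes. All 8 thymocyte markers were open, among them Cd3g, a subunit of the T cell receptor complex, with strengths of 18.5 and 4.93 in replicates 1 and 2. Lck, a kinase of T cell receptor signalling, had 17.3 and 4.99, and Cd8a, a coreceptor, 12.6 and 3.59. None of 3 hepatocyte and none of 3 B cell markers were open, against 1 of 4 testis germ cell markers (Prm1).

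The strength of a promoter was the largest deposited peak signal in its window. Strengths carry 1 scaling factor per animal, so replicates are set side by side as percentiles among all protein-coding genes with a promoter peak in that replicate, where 100 is the strongest. Strengths given as a pair are those of replicates 1 and 2, in that order. Open histone promoters had a median strength of 7.95 in replicate 1 and 4.59 in replicate 2. Other open genes had medians of 6.05 and 3.97. As percentiles, the histone median was 59.9 ± 1.24 and that of other open genes 51.9 ± 0.576 (SD, n = 2 replicates). Of the 47 open histone promoters, 32 in replicate 1 and 28 in replicate 2 lay above the median strength of other open genes. Their strengths spanned 0.841 to 21.4 in replicate 1 and 0.599 to 13.4 in replicate 2, so openness was common while strength varied widely. Across the 47 genes the strengths of both animals had a Spearman rho of 0.893, a description over genes that partly share peaks; the value over other open genes was 0.912.

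H4 promoters were the strongest type in both animals. Their median percentile was 84.4 ± 2.19, against 60.1 ± 1.12 for H2A, 58.4 ± 0.843 for H1, 57.0 ± 4.13 for H2B and 55.8 ± 1.58 for H3 (SD, n = 2). Those 4 medians, from 55.8 to 60.1, lay about as far apart as the replicates of H2B, at 59.9 and 54.0. Strengths within each type overlapped those of every other type.

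**Figure D1:**
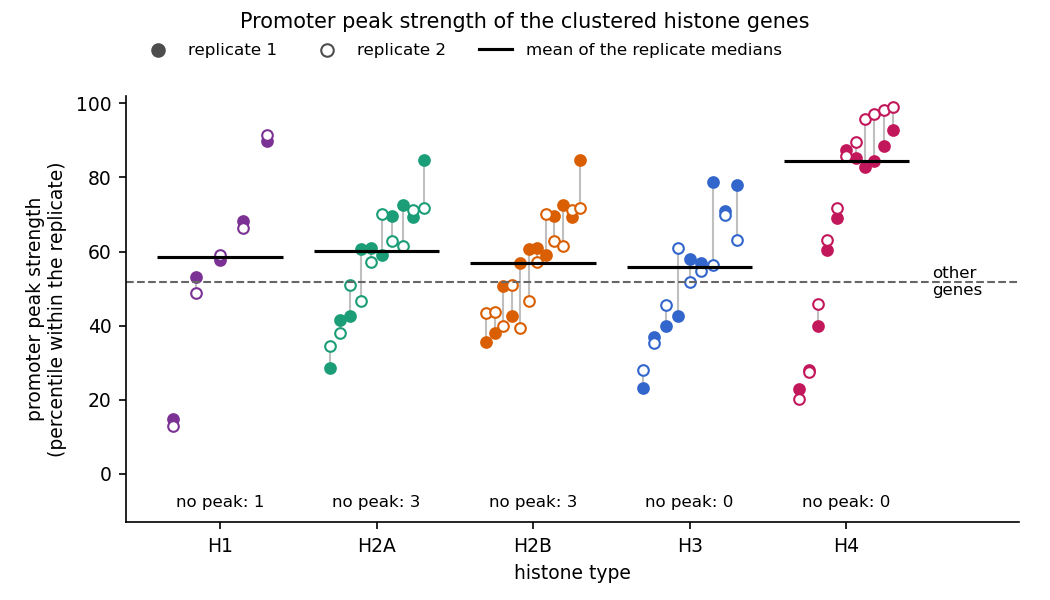
Promoter peak strength of each open histone gene, as a percentile within the replicate (vertical axis), by histone type (horizontal axis). Filled and open circles are replicates 1 and 2, grey lines join the replicates of a gene, black lines are the mean of the replicate medians, and the dashed line is that of other genes at 51.9. The H4 line lies at 84.4, with 6 H4 genes near or above it and Hist1h4m and Hist1h4n lowest among the H4 genes.

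Among the H4 genes, Hist1h4c was the strongest histone promoter of the locus, with 21.4 in replicate 1 and 13.4 in replicate 2. Among the clustered genes it alone was in the top 10% of promoters in both animals, at percentiles 92.7 and 99.1. Hist1h4h followed with 17.9 and 12.1, Hist1h4d with 15.8 and 11.3, and Hist1h4i with 15.01 and 10.5. Hist1h4k had 16.1 and 8.59, and Hist1h4a 17.2 and 7.90. Hist1h4a and Hist1h4k lay above Hist1h4d and Hist1h4i in replicate 1 and below them in replicate 2. The middle of the range was held by Hist1h4b, with 10.1 and 5.94, and Hist1h4f, with 7.87 and 5.01. At the low end Hist1h4j had 3.99 and 3.34, Hist1h4m 2.18 and 1.59, and Hist1h4n 1.56 and 1.02. Hist1h4m and Hist1h4n lie in a duplicated stretch described further on; without them the H4 median was 87.0 ± 3.63 (n = 2).

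H1 promoters ranged from near the top to the bottom. Hist1h1c, a linker histone gene of somatic cells, had 18.9 and 9.10, at percentiles 89.97 and 91.6. Hist1h1a had 9.84 and 5.33, Hist1h1e 7.32 and 4.59, and Hist1h1b 6.39 and 3.62. Hist1h1t was the weakest open histone promoter, with 0.841 and 0.599. Its peak midpoints lay 397 and 469 bp downstream of the start codon, and none of its upstream 150 bases shown earlier lay under a footprint. No base of the 300 before its start codon was listed at a false discovery rate under 0.05 in either animal. With a window of 250 bp, 4 H1 genes were open, and Hist1h1t was not among them. Hist1h1d counted as closed because its only annotated TSS is 1828 bp before its start codon. At the start codon itself Hist1h1d had a peak in both animals, chr13:23554941-23555220 in replicate 1, with strengths of 14.8 and 6.45.

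The highest H2A and H2B values belonged to head-to-head pairs that share a peak. Hist1h2ad and Hist1h2bf had 15.9 and 5.93. Hist1h2ag and Hist1h2bj had 10.2 and 5.87, Hist1h2an and Hist1h2bp 11.0 and 4.85, and Hist1h2ai and Hist1h2bl 10.2 and 4.998. The replicates placed these pairs in different orders: Hist1h2an with Hist1h2bp was second in replicate 1 and the lowest of the 4 in replicate 2. By mean percentile, the weakest open H2A promoters were Hist1h2af, with 4.24 and 2.59, and Hist1h2ab, with 2.26 and 2.24. By the same measure the weakest open H2B promoters were Hist1h2bm, with 3.73 and 3.14, and Hist1h2bb, with 3.36 and 3.11. None of these 4 genes is in a head-to-head pair. In replicate 2 alone the lowest H2B values were those of Hist1h2bh, which is in such a pair, with 2.70, and Hist1h2be, with 2.76. The Hist1h2be value is of a peak within the Hist1h1e gene, far from its own coding sequence. At its start codon Hist1h2be had 3.46 in replicate 2, above Hist1h2bm and Hist1h2bb.

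H3 promoters were all open and mostly of middle strength. Hist1h3e had 12.9 and 5.02, Hist1h3h 10.6 and 5.75, and Hist1h3g 13.2 and 4.34. Hist1h3f had 7.18 in replicate 1, a value of the neighbouring Hist1h2bh peak, and 4.19 in replicate 2. Its TSS is 433 bp before its start codon, where its own peak had 4.08 and 4.19. Hist1h3a had 3.56 and 2.33, and Hist1h3d was the lowest with 1.57 and 1.62. Hist1h2be is the third gene whose model starts far from its coding sequence, 35138 bp away; its start codon had a peak of 4.45 and 3.46. With start codons in place of TSSs, 48 of 54 histone genes were open, against 41.5% of other genes. Only 3 histone genes have their TSS over 200 bp from the start codon. That distance was not measured in other genes, whose share was 58.6% at TSSs, so the gap at start codons is not a like comparison.

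Peaks lay just before the coding sequence. Within 500 bp of the start codon, the midpoint of the strongest peak was before the start codon for 43 of 48 genes in replicate 1 and 42 of 48 in replicate 2. Its median position was 65.5 and 71.5 bp before the start codon for H4, 60.5 and 75.5 bp for H3, 112.5 and 148 bp for H2A, and 168.5 and 140 bp for H2B. For the 6 H1 genes it was 14 bp before the start codon in replicate 1 and 4 bp after it in replicate 2. Open H1 genes, whose median span was the longest of the 5 types at 912 bp, also had the largest share of their own span under peaks, with a median of 40.2% ± 2.38 (n = 2). The median over all open histone genes was 17.3% ± 2.97, against 23.2% ± 1.30 for 147 other open single-exon genes of up to 2 kb. Words of 36 bases that occur more than once in the assembly give a read several possible places. In the 300 bases before the start codon, at least 99.6% of words occur once at open H2A and H2B genes. Within 500 bp of the start codon, 47.0% to 72.2% do for open H2A and 48.3% to 72.9% for open H2B genes. For H1 genes it is 78.8% to 100%. The part of this in the positions and shares was not tested.

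**Figure D2:**
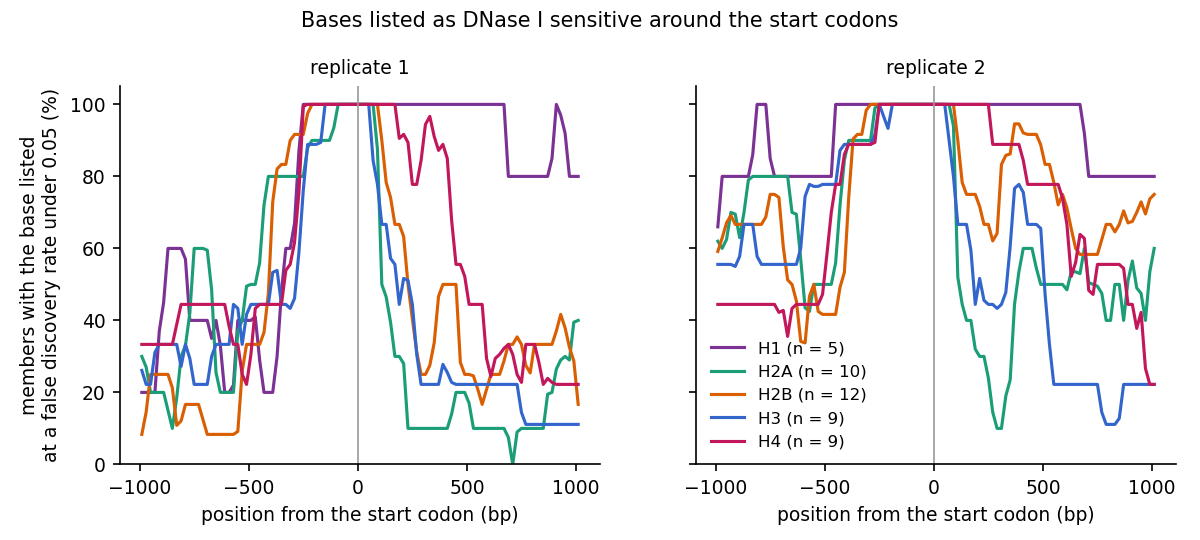
Share of histone genes (vertical axis, percent) with a base listed at a false discovery rate under 0.05, in steps along the distance from the start codon (horizontal axis, bp), by type and replicate. The 6 duplicated genes, the 2 testis genes Hist1h2aa and Hist1h2ba, and Hist1h1t were left out after their values were seen. At 600 bp after the start codon the share is 100% for H1 in both replicates, and for H2A 10% in replicate 1 and 48.5% in replicate 2. The median span of open H2A genes was 439 bp, so this point lies past the end of most of them but inside the longer H1 genes. The share of words that occur once also differed between these types, and its part was not tested.

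The 54 genes fell into 4 subclusters when gaps over 100 kb were taken as breaks. Subcluster 1, chr13:21715763-21837530, had 14 of 18 genes open. Subcluster 2, chr13:22035164-22043676, had 5 of 5 genes open and the highest medians, at percentiles 69.3 and 71.1 in replicates 1 and 2. Subcluster 3, chr13:23531050-23764406, had 28 of 29 genes open, with median percentiles of 59.1 and 57.1; its 1 closed gene was Hist1h1d. Subcluster 4, chr13:23933773-23934851, held only Hist1h2ba and Hist1h2aa, which encode the H2B and H2A variants of male germ cells, and both were closed. No base of the 300 before the start codon of Hist1h2aa or Hist1h2ba was listed at a false discovery rate under 0.05 in either animal. Of the 36-base words around these TSSs, 96.3% for Hist1h2aa and 83.5% for Hist1h2ba occur once in the assembly.

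**Figure D3:**
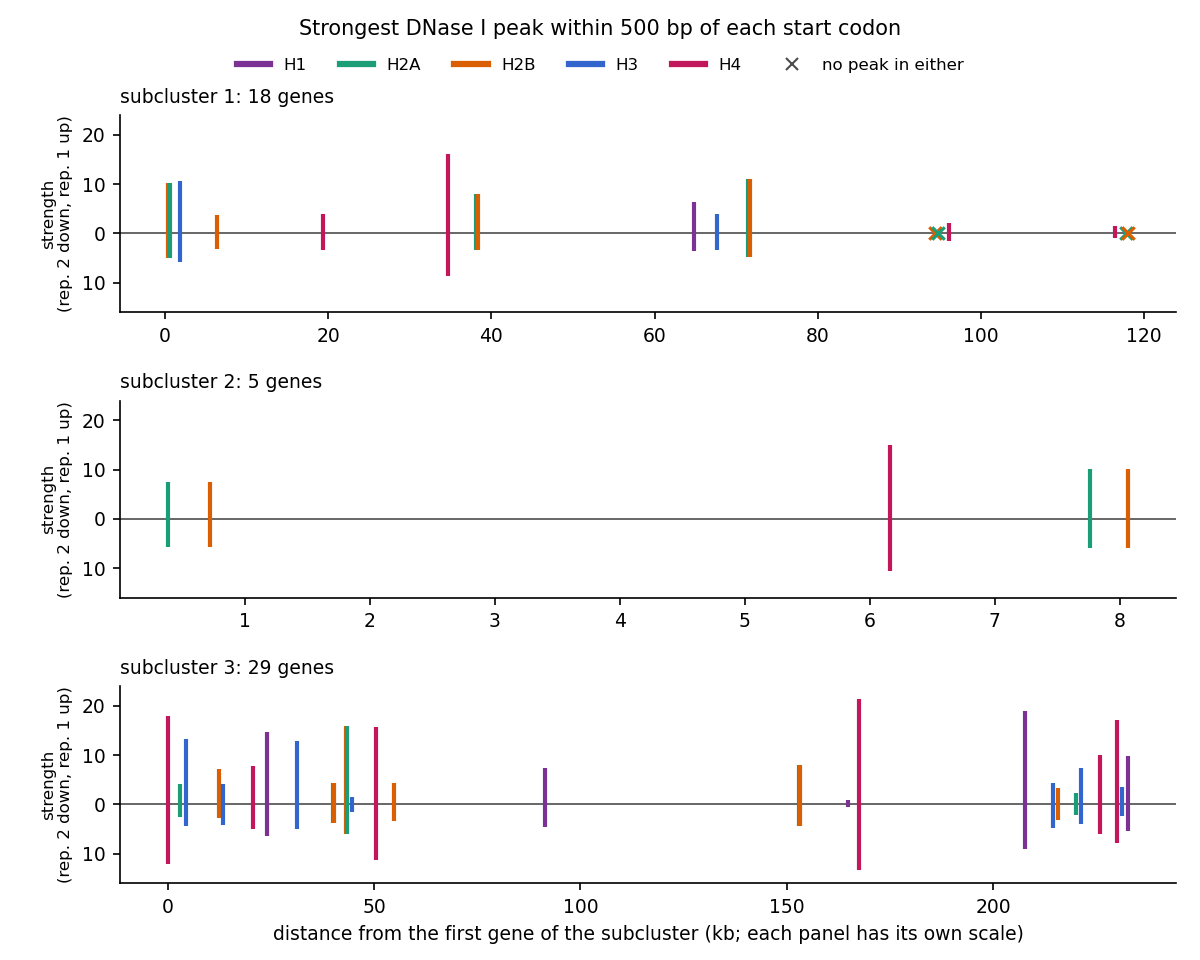
Strength of the strongest peak within 500 bp of each start codon (vertical axis, replicate 1 upward and replicate 2 downward) along subclusters 1 to 3 (horizontal axis, kb from the first gene), coloured by histone type. Crosses mark genes with no peak in either replicate; lines of head-to-head pairs partly cover each other. The tallest lines, 21.4 upward and 13.4 downward, are Hist1h4c in subcluster 3, and the 4 crosses stand at the far end of subcluster 1.

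Head-to-head pairs mostly rested on 1 shared peak. There were 12 such pairs, 11 of an H2A with an H2B gene and 1 of Hist1h2bh with Hist1h3f. Their start codons lay 279 to 1133 bp apart, with a median of 300 bp. A peak was present in both animals for 9 pairs, and 8 of these had the same strongest peak for both genes in both animals. The exception was Hist1h2bh with Hist1h3f, which shared 1 peak in replicate 1 and had separate strongest peaks in replicate 2. The 3 pairs with no peak were Hist1h2aa with Hist1h2ba and the 2 duplicated pairs. The 47 open genes thus rested on 38 strongest peaks in replicate 1 and 39 in replicate 2, so their values are not all independent.

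Of the 7 closed genes, 4 lie in an inverted duplication of subcluster 1. The arm from Hist1h2bq to Hist1h4m, chr13:21806612-21812147, shares 99.3% of its 36-base words with the arm from Hist1h4n to Hist1h2br, chr13:21831767-21837530. None of the words around the TSSs of Hist1h2bq, Hist1h2ao, Hist1h2ap and Hist1h2br occurs once in the assembly, so a read of that length from there has more than 1 possible place. The 235 bases between the outermost TSSs of Hist1h2br and Hist1h2ap, chr13:21833508-21833742 on the minus strand, differ at 0 positions from their counterpart in the other arm, chr13:21810200-21810434 on the plus strand. That counterpart lies within the longer stretch between the TSSs of Hist1h2bq and Hist1h2ao. It is printed to show the letters that both closed pairs share, with 3 matches to CCAAT and 1 to TTTNGCGC in capitals.
Hist1h2bq-Hist1h2ao: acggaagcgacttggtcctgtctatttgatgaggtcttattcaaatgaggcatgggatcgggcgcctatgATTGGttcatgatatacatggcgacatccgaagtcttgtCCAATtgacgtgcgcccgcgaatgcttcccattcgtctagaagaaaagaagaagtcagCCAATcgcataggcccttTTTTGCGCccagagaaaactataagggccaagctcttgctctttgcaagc

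Within these arms, the only listed bases were at the H4 genes. Each arm had 1 run of 202 bases at a false discovery rate under 0.05, from 103 bp before to 98 bp after the start codon of Hist1h4m and from 104 bp before to 97 bp after that of Hist1h4n. Both runs had the same first and last base in both animals. Near those start codons, words that differ between the arms span 71 bases, from 38 bp before to 32 bp after each start codon, inside both runs. Both arms were cut at annotated gene ends, which makes the Hist1h4n arm longer, at 5764 bases against 5536. Stretches of 63 and 235 bases at its ends hold words absent from the other arm as cut. Sequence beyond that cut was not compared, so these words are not shown to differ. No base was listed there. The peaks of Hist1h4m and Hist1h4n, 140 to 160 bp wide, lay inside the runs. No source used here says how reads with several placements were treated, and its part in the missing peaks was not tested. Outside the arms, 45 of 48 histone genes were open.

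**Figure D4:**
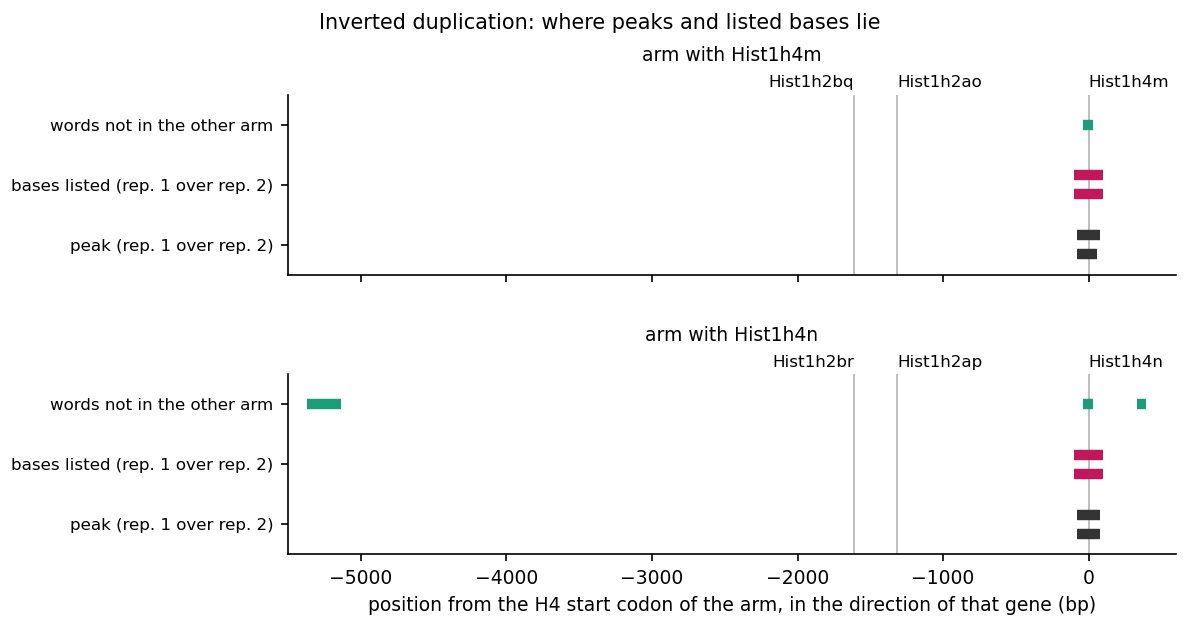
The 2 arms of the inverted duplication, by distance from the start codon of their H4 gene (horizontal axis, bp). Rows show words absent from the other arm as cut at its annotated gene ends, bases listed at a false discovery rate under 0.05, and peaks. The last 2 rows have replicate 1 above replicate 2. Listed bases and peaks surround the 71 bases at the H4 start codons, and none lie at the start codons of the H2A and H2B genes.

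The promoter strings of the histone genes differed in how they were spread over the types. A total of 8 short strings were searched on both strands from 250 bases before to 50 after the outermost TSS; no string contains another. CCAAT was in 13 of 13 H2A, 15 of 15 H2B, 8 of 9 H3 and 5 of 6 H1 windows but 3 of 11 H4 windows, against 38.6% of all other promoters. GGTCCG was in 10 of 11 H4, 2 of 9 H3 and 1 of 15 H2B windows, against 10.1% of other promoters. AAACACA was in 4 of 6 H1, 3 of 15 H2B, 1 of 13 H2A and 1 of 9 H3 windows, against 6.36%. ATTTGCAT, the octamer bound by POU2F1, was in 5 of 13 H2A and 6 of 15 H2B windows and in no H1, H3 or H4 window, against 1.54%. TTTNGCGC was in 7 of 13 H2A and 7 of 15 H2B windows and in no other histone window, against 1.66%. Windows of head-to-head pairs overlap, so 1 match can count for an H2A and an H2B gene.

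TATAAA was in 31 of the 54 windows (57.4%), against 12.4% of other promoters. Only 6 genes (11.1%) had it 15 to 40 bases before the annotated TSS, against 2.40% of other genes, and its median place was 88.5 bases before the start codon. For 22 of the 54 genes the annotated TSS lies within 10 bp of the start codon. GGGCGG was in 22 windows (40.7%), of which 8 were H4, 4 H1, 5 H2A and 5 H2B windows. Of all other promoters 45.3% held it, and of other open promoters 64.3%. In the 300 bases before the start codon it was found at 12 histone genes, 8 of type H4 and 4 of type H1. TGACGTCA, the string of CREB and ATF factors, was in 4 windows, against 2.51%. The windows had a median GC content of 45.3%, against 60.7% for other open promoters, and an observed to expected CpG ratio of 0.772, against 0.759.

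**Figure D5:**
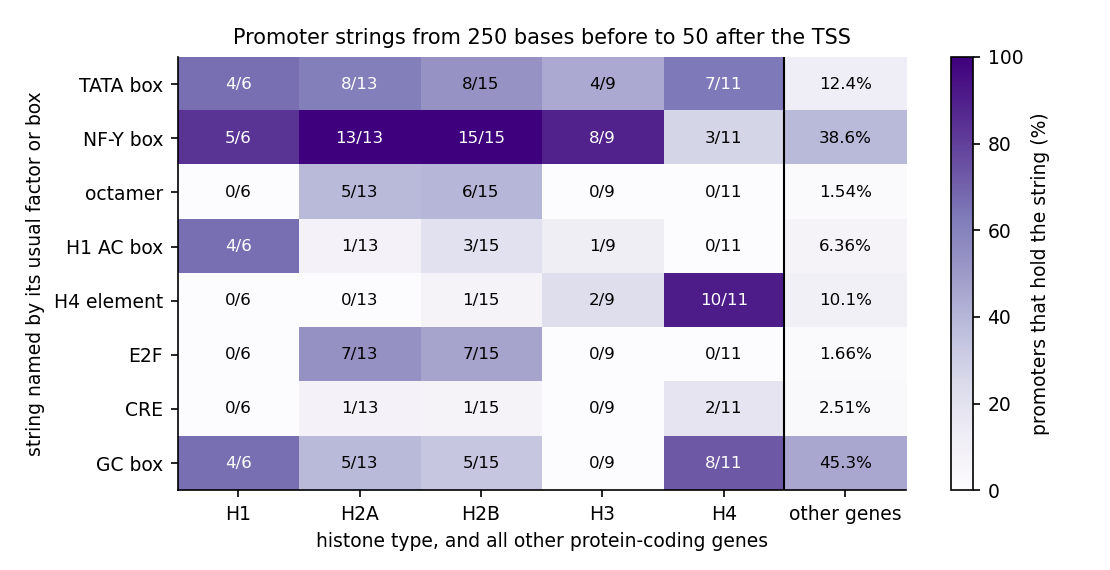
Number of promoters that hold each string, by histone type (columns, with all other protein-coding genes last), for strings named by their usual box or factor (rows); darker cells hold a larger percentage. The H4 element is in 10 of 11 H4 promoters and the NF-Y box in all H2A and H2B promoters.

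Footprints, short stretches spared by DNase I within open DNA, were present at nearly all open histone promoters. Open histone genes had 4.51 ± 0.0903 footprints in the 300-base window (n = 2), against 4.05 ± 0.0951 at other open genes. H2B had 5.33 ± 0.236, H2A 4.95 ± 0.212, H4 4.5 ± 0.45, H1 3.8 ± 0.566 and H3 3.33 ± 0.157. The order depended on the window. In the 300 bases before the start codon, replicates 1 and 2 had means of 5.08 and 4.67 for H2B and 4.7 and 5.1 for H2A. H4 had 4.27 and 3.55 there, H3 4.11 and 3.33, and H1 3.2 and 4.2, so H3 was the lowest in replicate 2 only. Windows without any footprint numbered 2 in replicate 1 and 1 in replicate 2, against 1934 and 1908 of 12656 other open genes. Genes were called open at any TSS, but footprints were counted at the outermost TSS, where 12117 other genes were open. As 50 of 54 histone genes have 1 TSS, the groups are not counted alike. Windows of head-to-head pairs overlap, so 1 footprint can count for both genes. Footprints covered 28.0% and 22.0% of the bases of open histone windows.

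The 30 bases around GGTCCG are given for the 10 H4 genes that hold it, from the strongest to the weakest, to show how much of the surrounding letters they share. Capitals mark the string, and all read in the direction of the gene.
Hist1h4c: agttttcaaccaGGTCCGcagaaggcctat
Hist1h4h: agtcttcaatcaGGTCCGaaaacactgcat
Hist1h4d: ggttttcaaacaGGTCCGcattggtattat
Hist1h4i: tgttttcactccGGTCCGcaagttccctat
Hist1h4k: ggttctcatttcGGTCCGcccgccgcagta
Hist1h4b: agttctcaaccaGGTCCGataagagcctat
Hist1h4f: agtcctctaaaaGGTCCGcattcgccatat
Hist1h4j: ggttctcatttcGGTCCGcccgctacagta
Hist1h4m: tgttttcactccGGTCCGcaagttccctat
Hist1h4n: tgttttcactccGGTCCGcaagttccctat
The string lay 52.5 to 82.5 bases before the start codon. It was under a footprint in both animals at the 7 strongest of these genes, Hist1h4c to Hist1h4f, whose strengths were 7.87 to 21.4 in replicate 1. At the 3 weakest it was under a footprint in replicate 1 alone for Hist1h4j and Hist1h4m and in replicate 2 alone for Hist1h4n; their strengths were 1.56 to 3.99 in replicate 1. Hist1h4m and Hist1h4n lie in the inverted duplication, where 1.13% of the words in the 300 bases before their start codons occur once, so of these 3 genes only Hist1h4j lies outside it. The stretch of Hist1h4i has the same letters as those of Hist1h4m and Hist1h4n. Hist1h4a holds no GGTCCG in this window and had strengths of 17.2 and 7.90. Its TATAAA, its GGGCGG matches and its 2 matches to TGACGTCA were all under footprints in both animals, and its CCAAT in replicate 1 alone. Hist1h4h holds both TGACGTCA and GGTCCG, each under a footprint in both animals.

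The H1 AC box lay under footprints in replicate 1 only. Before the start codons of 5 H1 genes AAACACA lay 151 to 185 bases upstream, and its surroundings are given in the same way, strongest promoter first, with Hist1h1d last because its TSS window had no peak.
Hist1h1c: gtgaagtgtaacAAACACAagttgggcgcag
Hist1h1e: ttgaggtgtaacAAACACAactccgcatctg
Hist1h1b: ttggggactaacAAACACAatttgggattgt
Hist1h1t: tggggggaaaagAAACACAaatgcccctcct
Hist1h1d: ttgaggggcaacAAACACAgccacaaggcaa
A footprint overlapped it in replicate 1 for Hist1h1c, Hist1h1b and Hist1h1d and in replicate 2 for none. Over the windows of all open histone genes, which leave out Hist1h1d, 0 of 9 AAACACA matches were under a footprint in both animals; 4 of the 9 were at H1 genes. The count was 8 of 13 for GGTCCG, 16 of 24 for TATAAA, 15 of 27 for GGGCGG and 4 of 6 for TTTNGCGC. CCAAT, the most widespread string, had 14 of 78, ATTTGCAT 1 of 6 and TGACGTCA 4 of 4. These are overlaps of at least 1 base between letters and footprints, and no level without association was computed for them; which factor was bound was not measured.

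Outside the annotated promoter windows, the subclusters were dense in further peaks. Peaks over 500 bp from any protein-coding TSS numbered 69 in replicate 1 and 57 in replicate 2, or 17.3 ± 2.33 per 100 kb (n = 2). Leaving aside the long Hist1h2be model, 7 and 12 of these peaks overlapped a histone gene. Near histone start codons lay 3 and 6, among them those at Hist1h1d and Hist1h2be, so not all lay between promoters. The density was 5.1 ± 0.0381 per 100 kb between the subclusters and 3.32 over chromosomes 1 to 19. With promoter windows left out of the length, it was 36.5 and 52.9 per 100 kb within 1 kb of a histone gene, against 16.7 and 6.26 in the remaining parts of the subclusters. Away from the genes replicate 1 had 40 such peaks and replicate 2 had 15. The peaks were mostly weak in replicate 1, with a median strength of 0.348, against 0.680 for all distal peaks, whereas in replicate 2 the medians were 0.783 and 0.564. Of them, 33 of 69 and 31 of 57 overlapped a peak of the other animal. Most replicate 1 peaks without such overlap lay in 2 stretches of subcluster 3, chr13:23697007-23706717 and chr13:23729891-23743580. Apart from chr13:23700881-23701060, these peaks had strengths of at most 0.358. They count towards the replicate 1 density of subcluster 3, which was 23.1 per 100 kb, against 16.3 in replicate 2. In subcluster 1 the densities were 11.5 and 14.0. At 1000 bp from every TSS the density was 10.97 per 100 kb in the subclusters and 3.06 over chromosomes 1 to 19.

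Several of these peaks rivalled promoters in strength. In replicate 1 the strongest, apart from the peak at the Hist1h1d start codon, lay past the end of Hist1h4h at chr13:23531661-23531840, 635 bp from its start codon, with 12.7 in replicate 1 and 4.15 for the overlapping peak in replicate 2. Another lay within the annotated span of Hist1h1c at chr13:23739581-23739880, 881 bp from the start codon, with 11.5 and 4.49. It was the stronger of both in replicate 2. The B box string of tRNA genes (GTTCGANNC) was in 0 of the 69 and 1 of the 57 peaks, against 0.590% and 0.771% of all distal peaks. The CTCF string AGGGGGCGC was in 0 of each, against 1.71% and 1.94%. At these shares the peaks are too few to show a difference.

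The genes around the subclusters differed in openness by family. Of 49 other protein-coding genes within or between the subclusters, 8 were open in both animals. None of 36 annotated vomeronasal receptor genes (Vmn1r), pheromone receptors of sensory neurons, was open in both animals; Vmn1r216 is annotated under 2 identifiers, and Vmn1r196 had a peak of 0.161 in replicate 2. Among the 13 others, Zfp322a had 12.6 and 5.35, Abt1, a nucleolar gene, 8.06 and 7.07, and Zfp184 5.90 and 4.44. Hfe, an iron regulator inside subcluster 3, had 5.60 and 1.45. Trim38 and the transporter genes Slc17a1, Slc17a2, Slc17a3 and Slc17a4 were closed. No tRNA gene lay within a subcluster; 47 of the 77 between subclusters (61.0%) had a peak within 100 bp in both animals, against 163 of 326 tRNA genes elsewhere.

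Histone genes outside chromosome 13 gave a second set of promoters. Of 13 replication-dependent histone genes elsewhere, 12 were open, with a median percentile of 64.6 ± 5.71, against 59.9 ± 1.24 in the clustered genes. By mean percentile the strongest were both H4 genes of that list, Hist2h4, with 11.9 and 7.55, and Hist4h4, with 8.81 and 8.86. The H2B gene Hist2h2bb followed with 16.2 and 5.30. Hist2h3c1, an H3 gene, had no peak in replicate 1 and 0.420 in replicate 2.

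Genes for replacement histones, which are used outside DNA replication, were open in 11 of 11 cases, with a median percentile of 77.9 ± 0.260. H2afz, which encodes the variant H2A.Z, had 21.1 and 10.97, H2afx, the variant phosphorylated at DNA breaks, 28.9 and 8.19, and H2afv 25.3 and 8.19. All 22 genes for factors of histone gene expression were open, at 70.3 ± 0.322. Yy1, a zinc finger factor, had 25.01 and 9.97, Npat, the coactivator of histone genes, 25.4 and 9.29, and Casp8ap2, a protein of histone locus bodies, 21.6 and 10.09. Hinfp, named here for its H4 element, had 27.99 and 7.21. Ribosomal protein genes, another abundant housekeeping family, were open in 77 of 80 cases, at 74.7 ± 0.0892, led by Rplp0 with 22.3 and 13.8, Rpl18 with 24.02 and 9.06, and Rpl3 with 19.2 and 10.8. The medians of these 3 lists lay above that of the clustered genes in both animals and below that of the H4 genes.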

How the data were processed

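The DNase-seq files of 2 thymus samples were used. Per the deposited file listing, the authors made each file from that sample's own mm10 alignments, with no pooling. No source used here names the aligner, the callers, their settings or the treatment of reads with several placements. The authors' signal of a peak (strength) carries 1 factor per library. The deposited false discovery rate (q-value) track lists only bases under 0.05, and the footprint column is 0.01 throughout, so only positions were used.

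Promoter peaks, footprints and strings were counted with Python 3.11.15, numpy 2.4.6 and pandas 2.3.3, using GENCODE M21 basic TSSs of protein-coding transcripts; the overlap and string functions were tested on simulated data. Copies of 36-base words were counted in the GRCm38.p6 chromosomes. Depth is unknown, so no counting interval is given, and with 1 group of 2 there is no test. The samples carry different animal numbers; their spread may be partly technical.

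Genes named are all without a peak, all H1 genes, and for other types the 4 highest and 2 lowest open genes by mean percentile, plus the 3 strongest of each open comparison list by the same mean. Further H4 genes, Hist1h2be, Hinfp, single distal peaks and neighbouring genes were chosen after their values were seen. Upstream sequences are of the strongest gene of each type and Hist1h1t; the duplicated stretch and the H1 and H4 string lines were chosen after seeing values. Members, lists and strings were chosen with earlier results of these data known. The result of 1 marker list is not reported here.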

Additional observations from a re-analysis of the deposited data

How the results depend on the processing

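The count of open histone promoters was 45 to 48 under every alternative tried (window, TSS choice, shorter peak list, peak midpoint, start codon, without the duplication) and 47 without either replicate. H4 stayed the type with the highest median percentile under each window, TSS, list and strength setting, at 77.9 to 86.5. The histone median percentile was 57.2 with the shorter peak list and 65.0 with start codons; without 1 replicate it was 59.0 to 60.8. The density of distal peaks per 100 kb was 10.97 at 1000 bp from TSSs, 10.97 with the shorter list, 19.9 with breaks at 50 kb and 13.9 at 250 kb, and 15.6 to 18.9 without 1 replicate. Its ratio to chromosomes 1 to 19 was 5.26 ± 1.21, against 3.67 ± 1.74 at 1000 bp (n = 2). Footprints per open promoter were 7.90 in a window of 500 bp to each side, 3.37 when found in both replicates and 4.31 before start codons. Strings under a footprint fell to 34.7% when the whole match had to be covered, against 49.7%. The gene span under peaks was 12.8% with the shorter list. Causes were not tested, apart from the fewer peaks or wider windows that these settings hold by construction. Start-codon and duplication alternatives were chosen after seeing the data. No paired analysis was possible because the design has 1 group. Depth and the placement of reads in duplicated DNA limit the values.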
